A study of Mus musculus with 6 samples.

Results

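The genes described here are 38 macrophage and innate immune genes, measured by bulk RNA sequencing in the maxillary prominence of mouse embryos. They were found by symbol among the 53801 genes of the count tables, and all 38 were present. The maxillary prominence is the facial swelling that forms the upper jaw and most of the palate. The study asked how excess Dlx2, a homeobox gene of the jaw region, changes gene expression there. WT embryos at E12.5 (3 samples; strain C57BL/6 in the sample fields, C57BL/6J in the protocols) were compared with Wnt1cre; Rosa26Dlx2/- embryos of the same strain and age (3 samples), hereafter Dlx2OE. In Dlx2OE a Flag-tagged Dlx2 cassette at Rosa26, driven by the CAG promoter behind a stop element, is switched on by Cre under Wnt1 control, so mainly in the neural crest and its descendants. The WT animals are named only as wild type, so a Cre-only or cassette-only control was not part of the comparison. RNA came from several littermates, and whether 1 sample is 1 embryo or a pool is not given.

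Macrophages of the embryo derive from blood progenitors that first arise in the yolk sac, and not from the neural crest. They need signaling through the CSF1 receptor, carry the myeloid transcription factor PU.1, engulf dying cells, and make complement C1q and lysosomal enzymes. In dissected tissue their transcripts mix with those of mesenchyme, epithelium, vessels and blood. In such bulk samples, fewer cells of a type and less RNA per cell cannot be told apart.

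Testing was possible for 33 of the 38 genes, the other 5 having too few counts. The fitted level was lower in Dlx2OE for 28. Among all 17514 genes tested, 49.7% did. The median log2 fold change (Dlx2OE over WT) of the 33 was -0.60, against 0.00275 for all genes tested. The test admits a gene that is high in either genotype alone, so these 33 are not all members. An adjusted p under 0.05 (edgeR) was reached by 6 members, and each of them fell: Il33, C1qa, C1qb, C1qc, Ctss and Trem2. That threshold was passed by 3.46% of all tested genes in the lower direction and 2.99% in the higher. Of these 6, all but C1qb also had a log2 fold change under -1, which held for 1.62% of all genes. No member rose, also at an unadjusted p under 0.05, where 17 were lower and 0 higher. The shares over all genes at that level were 15.4% lower and 14.1% higher. DESeq2, a second tool, called 12 members lower and 0 higher, beside 7.21% and 5.54% of the genes it tested.

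Call numbers depended on single samples. With Dlx2OE sample 2, WT sample 1 or WT sample 2 left out, Il33 alone stayed under 0.05, and without Dlx2OE sample 3 Il33 and C1qc did. Without WT sample 3, 9 members were under 0.05. Without Dlx2OE sample 1 there were 6, with Mrc1 in place of Trem2. Those fits kept 79 to 2091 genes under 0.05 in all.

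The transgene was read first as a check of the labels. Dlx2 stood at 41.0 ± 5.32 CPM (read counts scaled to a common library size; SD, n = 3) in WT and 124 ± 5.96 in Dlx2OE, a log2 fold change of 1.60 (SE 0.118, adjusted p = 0.00241). Total counts on genes ran from 26155500 to 31308813. Mesenchymal markers were present: all 15 had at least 162 counts in every sample. This shows mesenchyme and does not tell the maxillary prominence from other facial regions. Dlx2OE sample 3 stands apart by the share of read pairs that met no annotated exon, which was 14.7% there and 5.03% to 7.82% in the other samples.

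Promoter sequence is shown for the members that fell, because macrophage genes are commonly bound by PU.1 at purine-rich sites and Dlx2 is a homeodomain factor. Each is the 250 bases before the transcription start, 5′ to 3′ on the strand of the gene, from RefSeq (GRCm38.p6). That start lies 151 bp from the GENCODE start for C1qc, 13 bp for C1qb and 1 bp for Il33. The C1qc window thus reaches into the gene as GENCODE places it. Capitals mark the PU.1 core GAGGAA, or TTCCTC where it lies on the opposite strand. A sequence was found for 5 of the 6 genes, the exception being C1qa.
C1qb, chr4:136886201-136886450, reverse strand: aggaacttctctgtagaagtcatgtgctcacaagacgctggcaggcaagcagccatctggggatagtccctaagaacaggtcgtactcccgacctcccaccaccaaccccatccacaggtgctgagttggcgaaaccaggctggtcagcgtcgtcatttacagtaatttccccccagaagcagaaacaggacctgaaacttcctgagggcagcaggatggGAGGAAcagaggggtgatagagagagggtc
C1qc, chr4:136892915-136893164, reverse strand: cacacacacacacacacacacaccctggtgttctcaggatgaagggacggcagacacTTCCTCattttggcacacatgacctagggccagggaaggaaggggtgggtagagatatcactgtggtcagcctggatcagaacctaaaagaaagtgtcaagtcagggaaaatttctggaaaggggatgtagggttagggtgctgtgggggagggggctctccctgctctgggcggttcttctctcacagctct
Trem2, chr17:48346151-48346400, forward strand: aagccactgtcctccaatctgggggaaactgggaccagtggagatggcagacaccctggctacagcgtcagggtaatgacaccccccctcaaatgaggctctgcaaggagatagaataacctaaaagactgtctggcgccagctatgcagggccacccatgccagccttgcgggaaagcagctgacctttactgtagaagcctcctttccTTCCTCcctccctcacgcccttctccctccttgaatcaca
Ctss, chr3:95526536-95526785, forward strand: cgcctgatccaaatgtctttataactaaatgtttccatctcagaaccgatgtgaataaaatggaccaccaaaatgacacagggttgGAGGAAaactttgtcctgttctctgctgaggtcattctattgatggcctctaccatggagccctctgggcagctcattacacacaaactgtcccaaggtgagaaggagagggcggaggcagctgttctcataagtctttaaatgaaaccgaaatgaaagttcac
Il33, chr19:29924863-29925112, forward strand: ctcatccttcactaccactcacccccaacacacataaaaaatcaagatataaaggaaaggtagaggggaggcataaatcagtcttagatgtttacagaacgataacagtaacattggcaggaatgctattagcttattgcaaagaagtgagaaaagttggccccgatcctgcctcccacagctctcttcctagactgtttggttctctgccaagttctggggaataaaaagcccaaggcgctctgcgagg
The PU.1 letters were present in 4 of the 5, namely C1qb, C1qc, Trem2 and Ctss, and in 23.3% of 32851 promoter windows of the same length. The homeodomain letters TAATTA, searched on both strands, were in 0 of the 5 and in 4.84% of all windows. A match describes the letters only, and so does the lack of one.

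Il33 encodes an alarmin cytokine that is kept in the nucleus of barrier and stromal cells and released on damage, and it was the member with the largest fall. Its level was 9.12, 9.42 and 8.98 CPM in the WT samples and 0.27, 0.701 and 1.11 CPM in the Dlx2OE samples, from 267, 284 and 280 counts against 8, 22 and 30. Every Dlx2OE sample lay below every WT sample by several fold. The log2 fold change was -3.73 (SE 0.429, adjusted p = 0.00844), a level 92.5% lower. Among all genes tested this was the 9th largest fall. Leaving out any 1 sample gave -4.22 to -3.36, with an adjusted p of at most 0.0452. Il1rl1, the receptor for this cytokine, was near 1 CPM and its genotypes overlapped. WT samples held 0.854, 0.697 and 0.609 CPM and Dlx2OE samples 1.79, 0.541 and 0.812. Its log2 difference of 0.54 had a 95% interval of -0.53 to 1.61 (adjusted p = 0.46) and turned to -0.10 without Dlx2OE sample 1.

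**Figure D1:**
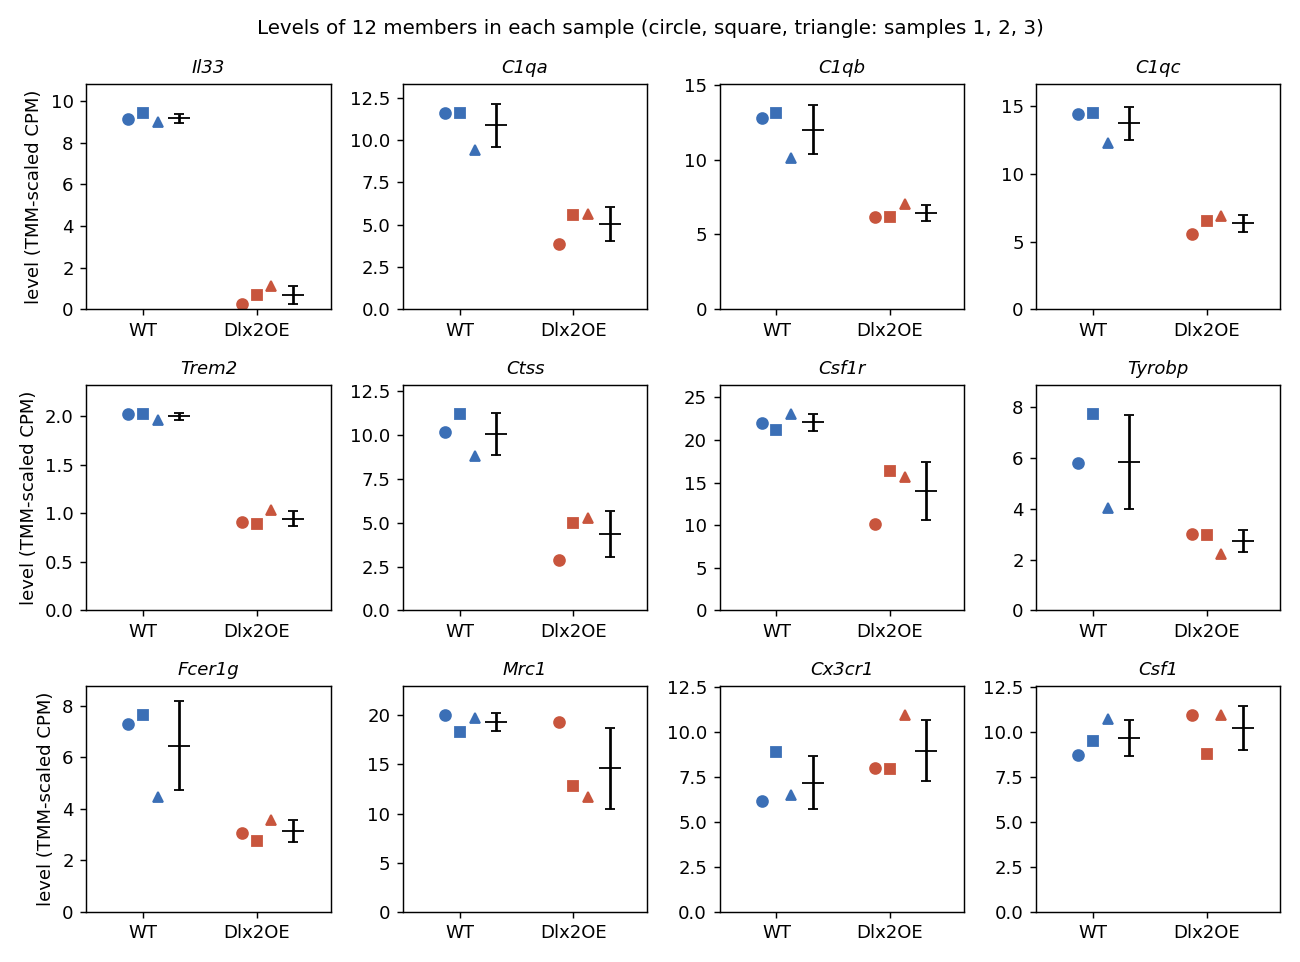
Level of 12 members (y axis, CPM scaled by the TMM method, from 0) in each WT and Dlx2OE sample. Points are samples, and the black bar beside each group is the mean with its SD (n = 3). Il33, the C1q genes, Trem2 and Ctss separate by genotype, while Csf1 and Cx3cr1 overlap.

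C1qa, C1qb and C1qc encode the chains of C1q, the recognition molecule that starts the classical complement pathway and tags debris for uptake. They lie side by side on the reverse strand of chromosome 4, with 3616 bp between C1qb and C1qc and 2851 bp between C1qc and C1qa. C1qa measured 11.6, 11.6 and 9.4 CPM in WT and 3.88, 5.57 and 5.65 in Dlx2OE. C1qb had 12.8, 13.1 and 10.1 against 6.14, 6.15 and 7.05, and C1qc had 14.4, 14.5 and 12.3 against 5.6, 6.56 and 6.87. For all 3 genes each Dlx2OE sample lay under each WT sample. Log2 fold changes were -1.11 (SE 0.211, adjusted p = 0.0283), -0.90 (SE 0.177, adjusted p = 0.0315) and -1.12 (SE 0.166, adjusted p = 0.0148). Their sum fell by 51.4%, from 36.7 ± 4.17 to 17.8 ± 2.01 CPM. C1qc made up 37.6% of that sum in WT and 35.6% in Dlx2OE, C1qb 32.7% and 36.3%, and C1qa 29.7% and 28.1%. With 1 sample left out, the adjusted p rose to as much as 0.124 for C1qa, 0.133 for C1qb and 0.0814 for C1qc, each without WT sample 2. With offsets for gene length and GC content, the log2 fold changes of C1qa, C1qb and C1qc were smaller, at -0.89, -0.66 and -0.96. Their edgeR adjusted p was then 0.0476, 0.0591 and 0.0211. With a block for sample number it was 0.0521, 0.0638 and 0.0386.

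The genes of ITAM signaling and Fc binding, through which myeloid cells sense lipids and antibody, were lower in 5 of 5 cases. In edgeR 1 passed the test and in DESeq2 4 did, beside 3.46% and 7.21% of all genes in the lower direction. Trem2, a lipid-sensing receptor, had 2.02, 2.02 and 1.96 CPM in WT and 0.911, 0.892 and 1.03 in Dlx2OE. This is a log2 fold change of -1.08 (SE 0.242, adjusted p = 0.0422) with no overlap, and it passed the threshold in 0 of 6 fits with a sample left out. Tyrobp, its adaptor, had 5.77, 7.7 and 4.01 CPM against 3.0, 2.96 and 2.22. Fcer1g, the shared gamma chain of Fc receptors, had 7.28, 7.63 and 4.46 against 3.07, 2.74 and 3.58. Neither gene overlapped between genotypes, but WT sample 3 lay low in both. They missed the threshold in edgeR (adjusted p = 0.0595 and 0.0558) and passed it there without that sample (0.0302 and 0.0226), and in DESeq2 with all samples (0.00732 and 0.00477). Fcgr3 and Fcgr1, receptors for IgG, had log2 differences of -0.88 and -0.58 (edgeR adjusted p = 0.0622 and 0.189), and DESeq2 called Fcgr3 (0.0189).

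Lysosomal and effector genes were also lower in 5 of 5, with 1 past the test in edgeR and 2 in DESeq2. Over all genes these shares were 3.46% and 7.21%. Ctss encodes cathepsin S, a protease of antigen-presenting cells, and had 10.2, 11.2 and 8.82 CPM in WT and 2.87, 4.97 and 5.28 in Dlx2OE. The groups did not overlap, and the log2 fold change was -1.21 (SE 0.259, adjusted p = 0.0381; 0.15 without WT sample 2). Lyz2, the lysozyme gene of myeloid cells, had 11.8, 15.3 and 6.96 CPM against 4.52, 7.83 and 5.58. Its groups overlapped, and its log2 difference was -0.92 (adjusted p = 0.111 in edgeR and 0.0239 in DESeq2). Aif1 had -0.65, Mpeg1 -0.59 and Cd68 -0.39, with adjusted p of 0.114, 0.27 and 0.295.

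Csf1r, the receptor that macrophages depend on for survival, had 22, 21.1 and 23.0 CPM in WT and 10.1, 16.3 and 15.6 in Dlx2OE. All Dlx2OE samples were lower, sample 1 most of all. The log2 difference of -0.65 (SE 0.19) did not pass in edgeR (adjusted p = 0.0754) and passed in DESeq2 (0.0146). Some 15.1% of its exonic bases are shared with Hmgxb3. Its ligand Csf1 overlapped between genotypes, at 8.71, 9.46 and 10.7 CPM against 10.9, 8.76 and 10.9, and its log2 difference of 0.08 had a 95% interval of -0.32 to 0.48. Il34, the other ligand, reached at most 3 counts in a WT sample and 6 in a Dlx2OE sample and could not be tested at this depth.

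Of the 7 pan-leukocyte genes 6 were lower and 0 passed the test. At an unadjusted p under 0.05 (edgeR) 4 were lower, beside 15.4% of all genes, and DESeq2 called 0. Spi1, which encodes PU.1, had 2.97, 3.29 and 3.24 CPM in WT and 1.96, 1.69 and 2.18 in Dlx2OE, a log2 difference of -0.71 (adjusted p = 0.0896). These groups were apart, whereas Ptprc, the CD45 gene of leukocytes, overlapped. Ptprc had 4.51, 3.95 and 4.14 CPM against 3.81, 4.46 and 3.51, with a 95% interval of -0.57 to 0.38 around -0.10. Coro1a, an actin regulator of leukocytes that other cells also express, was the only member with every Dlx2OE sample above every WT sample. It had 19.7, 20.6 and 15.8 CPM in WT and 21.3, 24.1 and 24.8 in Dlx2OE (log2 difference 0.32, adjusted p = 0.178). The reverse order, every Dlx2OE sample below, held for 18 tested members. Over all genes 16.7% lay wholly above and 17.3% wholly below. Itgb2 had -0.97 (adjusted p = 0.0721), Laptm5 -0.60, Cd53 -0.57 and Itgam -0.75, the last with 68.7% of its exonic bases shared with Gm49368 and so uncertain.

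Surface markers of tissue macrophages ranged widely and none of the 6 tested passed. Over all genes 15.4% were lower at an unadjusted p under 0.05 (edgeR), and DESeq2 called 7.21% lower. Of the 6, 1 reached that unadjusted p and 1 was called by DESeq2, in both cases Ms4a7. This membrane protein gene had 2.05, 2.22 and 2.15 CPM in WT and 0.439, 0.828 and 1.22 in Dlx2OE, a log2 difference of -1.37 (adjusted p = 0.0622). Adgre1, the F4/80 antigen, had 8.75, 6.84 and 7.25 CPM against 3.61, 6.81 and 5.72 (log2 difference -0.50, adjusted p = 0.238). Its WT and Dlx2OE samples came within a small margin of each other. Mrc1, the mannose receptor, had 20, 18.3 and 19.7 CPM against 19.3, 12.8 and 11.7, so that Dlx2OE sample 1 sat among the WT samples. Its log2 difference was -0.41 (adjusted p = 0.213) with that sample and -0.67 (0.032) without it. Stab1, a scavenger receptor, had 52.0, 42.3 and 61.9 CPM against 30.5, 43.3 and 52.8. Cx3cr1, the fractalkine receptor, had 6.15, 8.89 and 6.48 against 8.0, 7.93 and 10.9. Both overlapped, with log2 differences of -0.30 and 0.32 and an adjusted p of 0.367 each. For Cx3cr1 the 95% interval was -0.20 to 0.83. Cd14 had -0.05, a value whose sign changed with the scaling.

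Pf4, a chemokine gene of platelets and fetal macrophages, had 15.0, 12.5 and 8.34 CPM in WT and 7.83, 10 and 8.01 in Dlx2OE. F13a1, a coagulation factor subunit of the same cells, had 8.68, 7.8 and 5.68 against 8.67, 7.74 and 7.13. The groups overlapped for both genes, with log2 differences of -0.47 (adjusted p = 0.227) and 0.09 (0.799). The inflammatory chemokines had few counts. WT samples gave 6, 17 and 12 counts of Ccl2, against 14, 8 and 2 for Dlx2OE. For Ccl3 they gave 10, 14 and 16, against 1, 10 and 7. Ccl4, Cd163 and Timd4 had at most 8 counts in any sample, and 3 counts, the limit that a count of 0 allows, is 0.0955 to 0.111 CPM here.

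**Figure D2:**
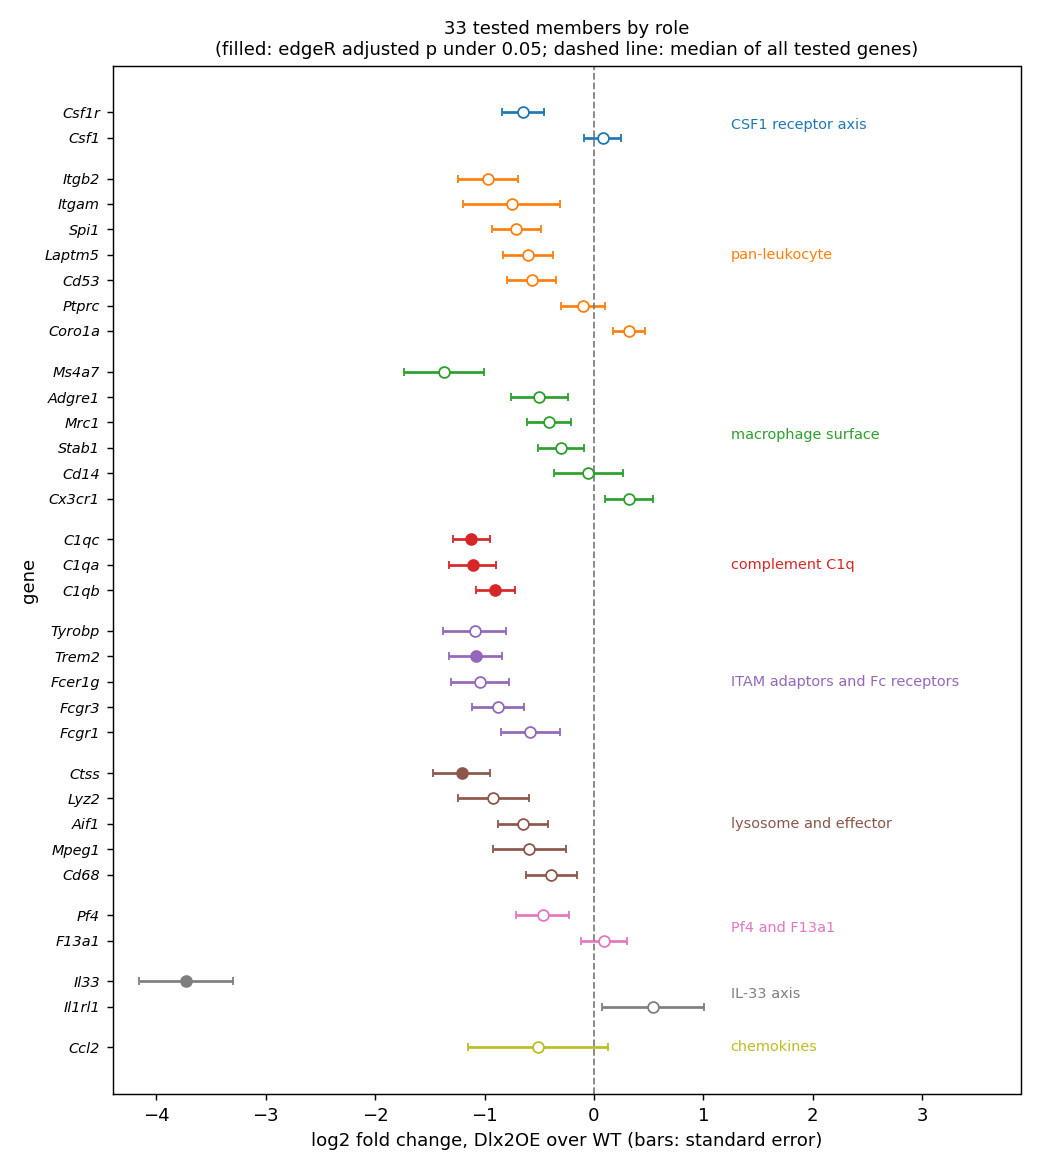
Log2 fold change of the 33 tested members (x axis, Dlx2OE over WT) with its standard error, grouped by role, with filled points for an edgeR adjusted p under 0.05. Il33 lies far to the left at -3.73, most macrophage genes lie between -1.37 and 0, and 5 genes lie to the right of 0.

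Per kilobase of exon, the WT samples put Pf4 first (16.6 ± 4.65 CPM per kb), then C1qb (11 ± 1.53), C1qa (10.5 ± 1.23), Tyrobp (8.74 ± 2.77), Lyz2 (8.62 ± 3.19), Ctss (7.43 ± 0.897), Fcer1g (7.39 ± 1.99) and C1qc (7.13 ± 0.637). Coro1a (6.72 ± 0.914) and Stab1 (5.06 ± 0.951) followed. In these 10 places every gene overlapped with the next in its sample values, so their order is not settled by 3 samples. Itgam, at 0.0995 CPM per kb, was the lowest of the tested members. Its level may be understated, since 68.7% of its exonic bases are shared with Gm49368.

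A core of 27 members that macrophages express, 25 of them tested, was summed. It holds the 7 pan-leukocyte genes, which other blood cells also express. The sum was 210, 215 and 189 CPM in WT and 122, 146 and 150 in Dlx2OE, which is 32% lower. The groups did not overlap, and the exact permutation test gave p = 0.1, the smallest that 3 samples against 3 allow. Of the 25, 23 were lower and 5 passed the test, beside 49.7% and 3.46% of all genes tested. Without Coro1a, which other cells share, the sum went from 186 ± 11.5 to 116 ± 13.2 CPM (37.7% lower). Without all 7 pan-leukocyte genes it went from 158 ± 13.1 to 96.5 ± 10.4 CPM (38.8% lower).

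Each core gene was then set against the sum of the other core genes in the same sample, so that a change common to all of them cancels. On this log2 ratio (Dlx2OE minus WT), 7 genes were lower with no overlap between genotypes, 3 were higher with none, and 15 overlapped. The lower ones were Ms4a7 (-0.94), Ctss (-0.72), C1qc (-0.59), C1qa (-0.59), Trem2 (-0.53), Itgb2 (-0.40) and C1qb (-0.35). Those that took a larger part of the core in Dlx2OE were Coro1a (1.01), Cx3cr1 (0.92) and Ptprc (0.47). The exact permutation p of each was 0.1, the smallest possible, so none of these differences can pass 0.05 in this design. These ratios were not rerun with length and GC offsets. With those offsets the core median log2 fold change was -0.66. Of the 7 lower genes, C1qb then stood at -0.66 and the rest at -1.36 to -0.89. Ptprc stood at -0.36, Cx3cr1 at 0.31 and Coro1a at 0.37. A share over all genes was not computed for the ratio. For CPM alone, 17.3% of all tested genes lay wholly below WT and 16.7% wholly above. With Coro1a out of the sum, Itgb2 and C1qb overlapped, Ms4a7, Ctss, C1qc, C1qa and Trem2 stayed lower, and Cx3cr1 (1.07), Ptprc (0.60) and Cd68 (0.30) were higher.

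**Figure D3:**
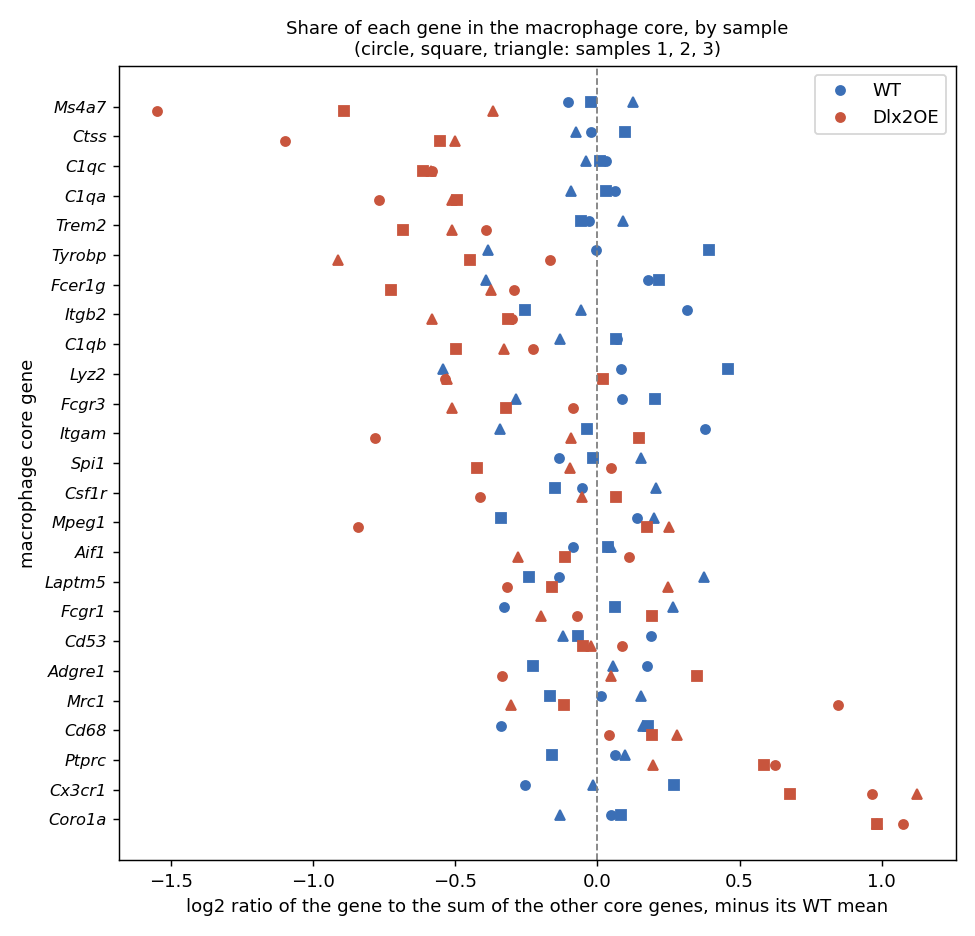
Log2 ratio of each of 25 core genes to the sum of the other core genes (x axis, minus the WT mean of that gene), 1 point per sample. Dlx2OE samples lie left of the WT samples for Ms4a7, Ctss, Trem2, Itgb2 and the C1q genes and right of them for Ptprc, Cx3cr1 and Coro1a, and the other 15 genes overlap.

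Genes of the same cells and pathways outside the 38 were read from further lists. Of 76 tested genes in a wider macrophage list, 69 were lower, with a median log2 fold change of -0.45, and 4 passed the test (5.26%, beside 3.46% of all genes). These were Apoe, a lipid carrier that macrophages and other cells make (115 ± 10.3 to 65.7 ± 8.88 CPM, log2 fold change -0.81, adjusted p = 0.0172), Lgmn, a lysosomal protease (-0.60, 0.0184), Fcrls (-0.84, 0.0334) and Blnk, an adaptor of immune receptors (-1.54, 0.0334). The summed level of this list was 25.3% lower. Toll-like receptor and inflammasome genes were lower in 19 of 26, and 0 passed in edgeR, with 5 at an unadjusted p under 0.05 and 2 in DESeq2. In the interferon list 19 of 25 were lower (median -0.61), and Bst2 (-1.24, adjusted p = 0.0422) and Ifitm2 (-0.97, 0.0211) fell, the latter sharing 40.9% of its exonic bases with other genes. Among other chemokines, Cx3cl1, the ligand of Cx3cr1, fell from 12.1 ± 3.38 to 5.77 ± 1.08 CPM (log2 fold change -1.07, adjusted p = 0.046). Among other complement genes, 14 of 16 were lower and Colec12, a collectin that is also a scavenger receptor, passed (-0.67, adjusted p = 0.0264). Genes of dead-cell clearance were split 9 lower to 7 higher, with 0 past the test in edgeR, 3 at an unadjusted p under 0.05 and 1 in DESeq2. Over these lists together, 136 of 165 tested genes were lower, and 8 fell and 0 rose at an adjusted p under 0.05 (2 higher at an unadjusted p under 0.05, and 1 in DESeq2). The 8 are 4.85% of the genes tested, near the 3.46% of all genes, so at this threshold the calls are not set apart from the background. Without WT sample 2 the number that fell was 0, and it was 1 without WT sample 1, Dlx2OE sample 2 or Dlx2OE sample 3, and 15 without Dlx2OE sample 1. At an unadjusted p under 0.05 (edgeR), 49 of the 165 were lower, beside 15.4% of all genes. DESeq2 called 18 genes of these lists lower, beside 7.21% of the genes it tested. In CPM, 64 of the 165 lay wholly below WT and 7 wholly above, beside 17.3% and 16.7% of all genes.

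Markers of other cells were summed in the same way. Erythroid genes summed to a level 39.6% lower in Dlx2OE, with 13 of 14 lower and 3 past the test (Hba-a2, Hba-a1 and Alas2). Over all genes 3.46% passed the test lower and 2.99% higher. At an unadjusted p under 0.05 (edgeR) 15.4% were lower and 14.1% higher, and in DESeq2 7.21% and 5.54%. Endothelial genes, which include the member Stab1, were lower in 17 of 19, with Emcn past the test (5.26%). Their sum was 19.2% lower, with overlap between genotypes. Neutrophil markers summed to 13.1 ± 1.74 CPM in WT and 7.98 ± 3.63 in Dlx2OE, with overlap. Lymphocyte markers summed to 10.5 ± 3.38 and 5.5 ± 1.99, without overlap. Platelet markers, which include the member Pf4, summed to 42.6 ± 7.56 and 36.0 ± 6.79, with overlap. Mesenchymal markers summed to a higher level, with 11 of 15 higher and Tfap2a, Alx4 and Twist1 past the test. Neuronal markers were higher in 12 of 12, with a median log2 fold change of 1.37. Of these 0 passed in edgeR, 4 were at an unadjusted p under 0.05 and 2 were called by DESeq2. Their sum was 170, 461 and 275 CPM in WT and 297, 733 and 1450 in Dlx2OE, highest in the sample that stands apart. Epithelial markers were lower in 9 of 13 and higher in 4, with log2 differences from -2.11 to 1.91, and only Krt8 and Krt18, keratins of simple epithelium, passed the test, both lower. The epithelial sum was 902, 1600 and 1200 CPM in WT and 2110, 676 and 697 in Dlx2OE, highest in Dlx2OE sample 1. Its mean was 5.92% lower in Dlx2OE, with overlap between genotypes. Muscle markers were lower in 10 of 11 (median -0.75), with 0 past the test in edgeR, 3 at an unadjusted p under 0.05 and 2 in DESeq2. Their sum overlapped, at 275 ± 99.3 CPM in WT and 178 ± 73.8 in Dlx2OE. Glial markers summed to 156 ± 4.64 and 209 ± 116 CPM, highest in Dlx2OE sample 3, and mast cell markers to 61.4 ± 6.58 and 56.7 ± 13. Of the 5 mast cell genes tested 2 were lower and 3 higher. At an unadjusted p under 0.05 (edgeR) 0 were lower and 2 higher, and DESeq2 called 1 of the list higher. The part of blood content, vessels, muscle and the other tissues in the macrophage result was not tested.

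**Figure D4:**
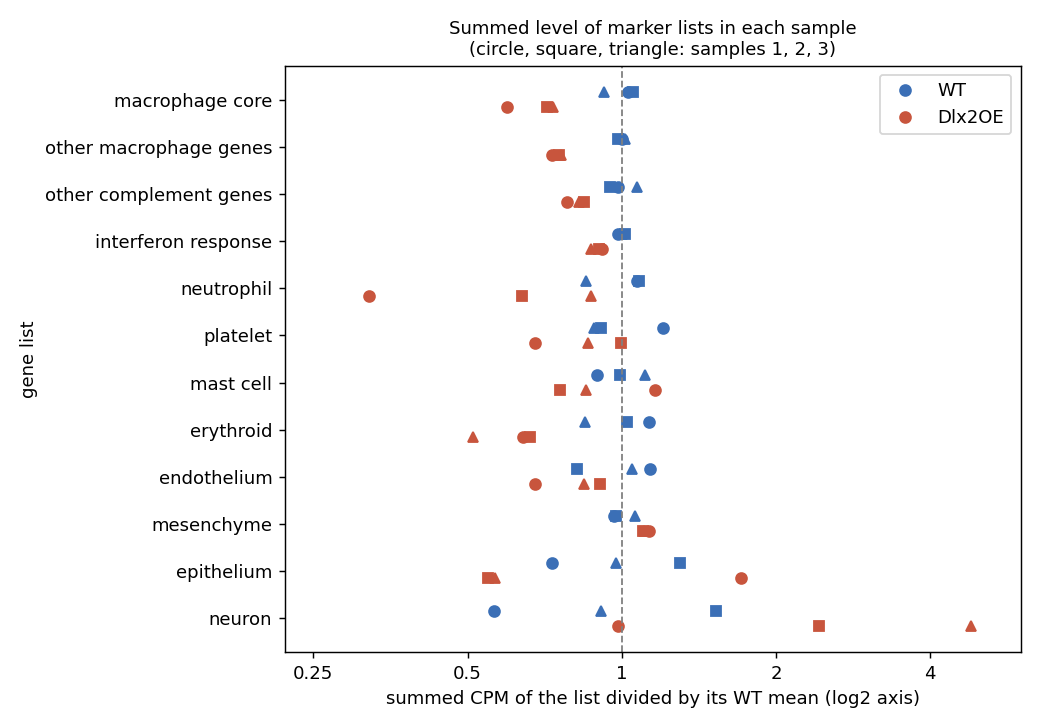
Summed CPM of 12 marker lists in each sample, divided by the WT mean of the list (x axis, log2 scale). The 3 Dlx2OE samples lie below all 3 WT samples for the macrophage core, the wider macrophage list and the complement, interferon and erythroid lists. They lie above all 3 for the mesenchymal list, while the epithelial and neuronal lists spread widely within a genotype.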

How the data were processed

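Raw counts per gene were deposited by the authors for 6 samples without normalization. Poly-A RNA libraries were sequenced as read pairs, mapped to mm10 with STAR 2.7.3a and counted with htseq-count (HTSeq 0.12.4, union mode), as the methods and the submitters' processing notes state. The annotation release and the strand setting are not given in the sources used here. Read pairs that met more than a single gene were set aside as ambiguous, at 5.975% to 6.902% of all per sample. Genes that share exonic bases with others may therefore be undercounted. Summary lines that name no gene were kept out of all totals. The share on no annotated exon is given in the report. Symbols and positions came from GENCODE M21, which held 53706 of 53801 identifiers.

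Genes with low counts were removed with filterByExpr (minimum count 10), leaving 17514. Genotypes were compared with TMM scaling and the quasi-likelihood test of edgeR 4.0.16 (R 4.3.3), with Benjamini-Hochberg adjustment over all tested genes. DESeq2 1.42.0, other scalings, other filters, length and GC offsets and leaving out each sample were alternatives. CPM values use the scaled totals, and SE is the fold change divided by the root of F. Depth was 26155500 to 31308813 counts per sample, and floors cover counting error only. The samples are described as independent RNA preparations, and where embryos were pooled the p-values measure the spread between pools.

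The members, roles and lists were chosen with earlier results of these data known. Per-sample values were given for members under 0.05, the 10 highest per kilobase, and preset ligands, receptors and markers. The remaining members and up to 4 genes of each other list (8 for the wider macrophage list) under 0.05 were given by their differences. The sums without Coro1a or the pan-leukocyte genes and the ratios within the core were added after the values were seen. The scripts were tested on simulated data.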

Additional observations from a re-analysis of the deposited data

Results flagged for a closer look

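The share of read pairs that met no annotated exon was above the WT level in each Dlx2OE sample, in data that no comparison uses. It was 5.75% in sample 1, 7.82% in sample 2 and 14.7% in sample 3, against 5.03% to 5.43% in WT. Its part in the member results was not tested, and counts without sample 3 stand beside those results.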

How the results depend on the processing

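The median log2 fold change of the members and of the core kept its direction under each alternative tried. The summed core level did so under the scalings, the removal of mitochondrial and haemoglobin genes and the samples left out, and no alternative was run on the sum of all members. Without the pan-leukocyte genes the core median was -0.89 and the log2 ratio of its sum -0.71, each further from 0. The numbers of genes past a threshold did not hold. Members with an adjusted p under 0.05 that were lower numbered 6 in the report, 12 in DESeq2, 2 with a replicate block, 1 with length and GC offsets plus the replicate block, and 1 to 9 with a sample left out. Those also under -1 numbered 5, and were 8 in DESeq2, 2 with the replicate block, 3 with length and GC offsets, 1 with offsets plus block, and 1 to 9 with a sample left out. Members wholly above WT numbered 1 to 2 with a sample left out. For the further innate lists, genes that fell numbered 8, and 18 in DESeq2, 17 without a filter, 4 with the replicate block, 3 with offsets plus block and 0 to 15 with a sample left out. Genes that rose there numbered 1 in DESeq2, 1 without a filter and 0 to 1 with a sample left out. The sign changed for Csf1 (-0.01 with length and GC offsets, with or without block), for Cd14 (0.02 with library size alone, 0.14 with offsets, 0.10 with offsets plus block, -0.31 to 0.15 with a sample left out), for F13a1 (-0.08 to 0.21) and for Il1rl1 (-0.10 to 0.85) with a sample left out. The cause of these changes was not tested. Same-numbered samples deviated from their genotype means with correlations of -0.0718, -0.211 and 0.0731. Samples of different number had -0.204 to 0.345, so no pairing by number was seen. Whether equal numbers share a litter or a preparation was not tested. With at least 10 counts required in every sample, Il33 left the test, since 1 sample has 8. Genes of a few counts, such as Il34 and Ccl4, are limited by depth.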
